A study of Mus musculus with 3 samples.

Results

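The circadian clock genes described here are 10 genes chosen by symbol, Arntl, Clock, Per1, Per2, Per3, Cry1, Cry2, Dbp, Tef and Nfil3, out of 44788 genes in the count table. All 10 had a row and all 10 passed the filter on low counts. RNA was sequenced in bulk from primary chondrocytes, the resident cells of cartilage, of mouse knee joint cartilage (strain C57BL/6). The cKO group (2 libraries) had the genotype Col2a1-CreERT2;Kdm6bf/f, and the control group (1 library) had Kdm6bf/f, so both carried the floxed alleles and only the cKO cells carried the recombinase, which the promoter of the cartilage collagen gene Col2a1 directs to chondrocytes. Cells of both genotypes were cultured with 10% serum and exposed to 1 µM 4-hydroxytamoxifen, the drug that activates the recombinase, for 48 hours. The age of the mice, the hour of harvest and any step that would set the cultures to a common phase are not given in the labels. Kdm6b encodes an enzyme that removes methyl groups from lysine 27 of histone H3.

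The mammalian clock is a transcriptional feedback loop. CLOCK and BMAL1 (the product of Arntl) bind E-box sequences as a pair and switch on the Per and Cry genes, whose proteins return to the nucleus and inhibit that pair. In a second loop the nuclear receptors REV-ERB (Nr1d1, Nr1d2) and ROR compete for elements in Arntl and Nfil3, and on the output side DBP and TEF activate genes through D-box sequences that NFIL3 represses. Chondrocytes hold such a clock, and loss of BMAL1 from chondrocytes is known to damage cartilage in mice.

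The promoters of the members show which of these elements sit near their start sites. RefSeq promoter windows (build GRCm38.p6) of 300 bases, from 250 bases before to 50 bases after a start site, matched 9 of the 10 members, Per2 being the one without an entry. Both strands were searched for the E-box CACGTG, the D-box TTATGTAA or TTACGTAA, the ROR element core TAGGTCA and the cAMP response element TGACGTCA. Of the 27025 genes in the RefSeq table, 8.09% hold the E-box in at least 1 window, 1.23% the D-box, 2.97% the ROR element core and 2.03% the cAMP response element. Among the 9 matched members, which have 14 windows in all, 3 (Per1, Cry1 and Tef) had an E-box, 1 (Per3) a D-box, 2 (Arntl and Nfil3) the ROR element core, and 0 the cAMP response element. Only exact matches inside these windows were looked for. A member without a match may still hold the element elsewhere or in a variant form, and Per2 was not searched. The 5 windows below are printed 5′ to 3′ on the strand of the gene, with matches in capitals, because they show an element of each of the 3 kinds in the members whose values are described next. Per3 (chr4:151044616-151044915, minus strand) has 2 D-boxes, which begin 205 and 158 bases before the start. Arntl (chr7:113207261-113207560, plus strand) has a ROR element core that begins at base 31 of the transcript from the second of its start sites, and Nfil3 (chr13:52980990-52981289, minus strand) has one 12 bases before its start, which reads TGACCTA on the strand of the gene. Per1 (chr11:69098699-69098998, plus strand) and Cry1 (chr10:85185005-85185304, minus strand) each have 1 E-box, 166 and 60 bases before the start.
Per3: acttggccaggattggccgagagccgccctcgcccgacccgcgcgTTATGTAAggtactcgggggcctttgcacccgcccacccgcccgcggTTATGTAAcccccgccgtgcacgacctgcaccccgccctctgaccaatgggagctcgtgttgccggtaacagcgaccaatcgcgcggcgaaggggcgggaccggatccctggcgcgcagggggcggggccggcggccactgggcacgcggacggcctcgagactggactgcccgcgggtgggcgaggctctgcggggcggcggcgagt
Arntl: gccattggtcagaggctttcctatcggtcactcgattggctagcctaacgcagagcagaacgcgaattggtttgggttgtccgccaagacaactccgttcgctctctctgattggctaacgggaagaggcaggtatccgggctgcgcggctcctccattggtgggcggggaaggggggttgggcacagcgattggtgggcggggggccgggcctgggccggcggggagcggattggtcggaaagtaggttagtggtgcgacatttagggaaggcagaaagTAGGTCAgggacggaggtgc
Nfil3: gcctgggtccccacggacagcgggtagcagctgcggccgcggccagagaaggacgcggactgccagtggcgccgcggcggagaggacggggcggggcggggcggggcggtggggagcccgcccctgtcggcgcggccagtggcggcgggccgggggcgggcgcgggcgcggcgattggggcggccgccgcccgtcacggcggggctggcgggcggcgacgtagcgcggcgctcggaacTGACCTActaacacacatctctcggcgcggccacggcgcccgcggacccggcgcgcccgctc
Per1: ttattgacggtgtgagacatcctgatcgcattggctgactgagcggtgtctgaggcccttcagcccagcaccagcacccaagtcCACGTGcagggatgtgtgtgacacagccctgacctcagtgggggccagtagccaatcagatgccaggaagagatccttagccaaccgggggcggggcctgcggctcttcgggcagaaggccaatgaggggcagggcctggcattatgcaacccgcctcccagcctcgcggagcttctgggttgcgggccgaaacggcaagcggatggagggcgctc
Cry1: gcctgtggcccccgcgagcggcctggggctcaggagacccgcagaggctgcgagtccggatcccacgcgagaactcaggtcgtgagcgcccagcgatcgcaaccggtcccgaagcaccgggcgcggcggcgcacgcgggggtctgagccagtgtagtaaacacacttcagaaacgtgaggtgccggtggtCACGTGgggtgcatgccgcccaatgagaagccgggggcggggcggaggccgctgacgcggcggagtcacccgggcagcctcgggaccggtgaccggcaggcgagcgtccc

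Library totals ranged from 12489738 to 12636471 counts, so depth was nearly equal. Values are given as read counts and as CPM, read counts scaled to a common library size with TMM factors. Kdm6b gave 1049 and 948 reads in the cKO pair, against 1289 in the control, and its log2 fold change of -0.39 ± 0.14 (SE) had an adjusted p of 0.138 in edgeR. Counts over the whole gene include exons outside the floxed part and check the genotype weakly. Xist gave 2 and 10081 reads in cKO replicates 1 and 2 and 1 in the control, while the Y-linked gene Ddx3y had 680, 0 and 732, so cKO replicate 2 stands apart in sex-linked transcripts from the other libraries. Summed chondrocyte markers (7 of 8 listed genes in the table, led by Col2a1 and Acan) lay at 15052 and 14136 CPM in the cKO pair, against 25187 CPM in the control. Col2a1 made up 12527.3, 11984.5 and 20115.8 CPM of these sums. In edgeR 6 of these 7 genes fell, and Col2a1 was the one that did not pass (log2 fold change -0.71 ± 0.33 SE, adjusted p = 0.283). Of 5 fibroblast and synovium markers, 4 were tested and 2 (Thy1 and Prg4, named after their values were seen) rose. The other tested markers, Pdgfra and Dpt, did not pass. Dpt lay lower in both cKO libraries, at 1.37 and 0.94 CPM against 2.82 CPM. The markers of this list summed to 619 and 461 CPM in the cKO pair, against 390.0 CPM in the control, of which Pdgfra made up 335, 272 and 241 CPM. Of 5 osteoblast markers, 3 were tested and 1 (Ibsp, named after its value was seen) fell, and their sum was 7083 and 6968 CPM in the cKO pair, against 6825 CPM in the control, of which Col1a1, a collagen gene that fibroblasts also express, made up 7068, 6950 and 6795 CPM. Leukocyte markers (7 of 8 in the table) summed to between 7.82 and 13.0 CPM, with Itgam and Tyrobp at 0 counts in each library, and endothelial markers to at most 1.29 CPM, with Cdh5 and Emcn at 0. Skeletal muscle markers summed to at most 6.10 CPM, with Myh4, Ckm and Myog at 0, and adipocyte markers to at most 3.77 CPM, with Cidec at 0. In bulk RNA, fewer cells of a type and less RNA per cell cannot be told apart, and the part of these shifts in the clock values was not tested.

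The clock genes were all expressed, with 156 to 1107 counts per library, and 0 of the 10 passed the test between cKO and control in either direction (edgeR's quasi-likelihood test, adjusted p under 0.05 over all 15529 genes tested). Over all genes tested, 3.01% rose and 1.90% fell. DESeq2 and limma-voom also called 0 members, where they called 1.46% and 2.99% of all genes higher and 0.541% and 2.32% lower. The fitted differences ran from -28.1% for Per3 to 24.8% for Arntl. Only Per3 had an unadjusted p under 0.05 in edgeR, against 15.7% of all genes, and the lowest adjusted p of a member was 0.9997 in DESeq2 and 0.128 in limma-voom. In limma-voom and in edgeR with RLE scaling 1 member had an unadjusted p under 0.05, as did 2472 and 2358 of the 15529 genes. In DESeq2 and in edgeR with a prior of 5 degrees of freedom 0 members did, against 941 and 1665 genes. All 10 of the 95% intervals lay inside a 2-fold change in either direction, the lowest bound being a fold of 0.548 (Per3) and the highest a fold of 1.71 (Arntl). Missing the threshold does not show that a gene kept its level, and the intervals give the range of changes left possible only under the variance that edgeR shares across genes. The median log2 difference of the members was 0.04, and that of all genes tested was -0.00223. The median size of the log2 difference, without its sign, was 0.18 over the members and 0.17 over the 11339 genes with a mean CPM of 5 or more. With 1 control library the model takes its spread from the cKO pair and from a variance shared across genes. Each p-value and each interval thus rests on the assumption that the control varies like the cKO libraries.

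**Figure D1:**
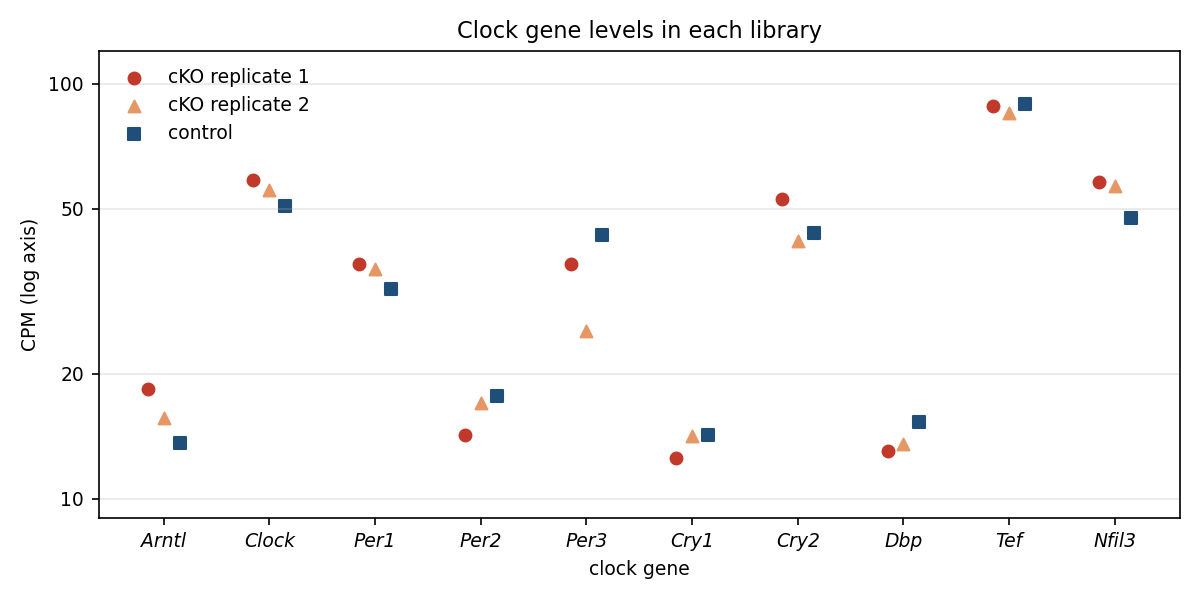
Level of each clock gene in each library, in CPM on a log axis; circles and triangles are the 2 cKO libraries and squares the control. Tef is highest, near 85 to 89 CPM in each library, and the widest spread is that of Per3, from 25.4 to 43.3 CPM.

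Both genes of the activating pair were higher in each cKO library than in the control, by amounts that did not pass the test. Arntl (ENSMUSG00000055116, chromosome 7, 113207465 to 113314126, GRCm38) gave 229 and 200 reads in the cKO pair, against 169 in the control, which is 18.4, 15.6 and 13.6 CPM. Its cKO mean was 17.0 ± 2.0 CPM (SD, n = 2), and its log2 fold change was 0.32 ± 0.22 (SE, adjusted p = 0.543 in edgeR, 95% interval -0.14 to 0.78). The excess of Arntl was larger in cKO replicate 1, at 0.43 on the log2 scale, than in cKO replicate 2, at 0.20. Clock (chromosome 5, 76209868 to 76304792), which encodes the partner of BMAL1, gave 729 and 708 reads in the cKO pair, against 631 in the control. Its log2 fold change was 0.16 ± 0.15 (SE, adjusted p = 0.681 in edgeR). The cKO libraries lay at 58.5 and 55.3 CPM, above the single control value of 50.9 CPM, as both did in 36.6% of all genes tested. Together the pair summed to 76.9 and 70.9 CPM in the cKO pair, against 64.5 CPM in the control. Clock transcripts outnumbered those of Arntl in reads by 3.18, 3.54 and 3.73 times in the 2 cKO replicates and the control, in part because the annotated exons of Clock cover 13727 bases and those of Arntl 7523.

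The 3 Per genes, whose proteins form the inhibitory complex with CRY, did not share a direction. Per1 (chromosome 11, 69095217 to 69109960), the member known for a quick response to serum, glucocorticoids and cAMP, gave 457 and 459 reads in the cKO pair, against 398 in the control, which is 36.7, 35.9 and 32.1 CPM. The log2 difference of Per1 was 0.18 ± 0.16 (SE, adjusted p = 0.686 in edgeR), with both cKO libraries above the control and close to each other. Per2 (chromosome 1, 91415982 to 91459324), a core component whose loss disturbs rhythms in mice, gave 177 and 218 reads in the cKO pair, against 219 in the control. Per2 differed by -0.18 ± 0.21 (SE, adjusted p = 0.777 in edgeR), and cKO replicate 2, at 17.0 CPM, lay next to the control at 17.7 CPM while cKO replicate 1 lay at 14.2 CPM.

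Per3 (ENSMUSG00000028957, chromosome 4, 151003652 to 151044665), the Per gene whose promoter window holds the pair of D-boxes printed above, had the lowest log2 fold change of the members. Its reads numbered 459 and 325 in cKO replicates 1 and 2, against 537 in the control, which is 36.9, 25.4 and 43.3 CPM. Both cKO libraries lay below the control, and cKO replicate 2 lay far below cKO replicate 1. The log2 fold change was -0.48 ± 0.19 (SE, 95% interval -0.87 to -0.08), with an adjusted p of 0.194 in edgeR. Taken alone, cKO replicate 1 was lower than the control by a log2 difference of -0.23 and cKO replicate 2 by one of -0.77, so leaving out either library moves the value by more than 1.5 times. The ratio of cKO replicate 1 to cKO replicate 2 was 1.45 for Per3, with an exact 95% binomial interval of 1.26 to 1.68 that covers counting error only. On the log2 scale this gap between cKO libraries was 0.53, against a median size of 0.14 over the 11339 genes with a mean CPM of 5 or more. cKO replicate 2 is also the library with the Xist counts, and the part of that difference in the Per3 value was not tested. Within the reads of the 3 Per genes, Per3 took 42.0% and 32.4% in the cKO libraries against 46.5% in the control, and Per1 took 41.8%, 45.8% and 34.5%, so Per1 had more reads than Per3 in cKO replicate 2 and fewer in the control.

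The Cry genes encode the repressors that bind CLOCK and BMAL1, and 0 of the 2 passed the test. Cry1 (chromosome 10, 85131700 to 85185064) gave 156 and 181 reads in the cKO pair, against 177 in the control, with a log2 difference of -0.10 ± 0.22 (SE; adjusted p = 0.904 in edgeR). Cry1 in cKO replicate 2, at 14.1 CPM, was nearly level with the control at 14.3 CPM. Cry2 (chromosome 2, 92403646 to 92434043) gave 658 and 534 reads in the cKO pair, against 543 in the control, which is 52.8, 41.7 and 43.8 CPM. It was the 1 member whose cKO libraries lay on either side of the control, and the fitted log2 difference was 0.11 ± 0.17 (SE, adjusted p = 0.834 in edgeR). The ratio of cKO replicate 1 to cKO replicate 2 was 1.27 for Cry2 (exact 95% binomial interval 1.13 to 1.42, counting error only). Cry2 and Per3 were the 2 members of 10 for which that interval between the cKO libraries left out a ratio of 1, and both were higher in cKO replicate 1.

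Of the 3 output factors, 0 passed the test. In both cKO libraries the D-box repressor gene Nfil3 lay above the control and the activator gene Dbp below it. The activator gene Tef was nearly level with the control, at log2 differences of -0.01 and -0.07. Over all genes tested, 74.0% had both cKO values to one side of the control. Dbp (chromosome 7, 45705088 to 45710203), an activator and one of the most strongly rhythmic transcripts in many tissues, gave 162 and 173 reads in the cKO pair, against 190 in the control, which is 13.0, 13.5 and 15.3 CPM. Both cKO libraries lay below the control, and the log2 fold change was -0.21 ± 0.22 (SE, adjusted p = 0.736 in edgeR). Exons of Dbp overlap those of Sphk2 on the opposite strand, which had 523 to 532 counts. Reads in the shared stretch, whose length was not measured, cannot be told apart if strand was not used in counting. Tef (chromosome 15, 81802421 to 81826863), a related activator, gave 1102 and 1090 reads in the cKO pair, against 1107 in the control. Its log2 fold change was -0.04 ± 0.14 (SE, 95% interval -0.33 to 0.25), the smallest difference among the members. Nfil3 (ENSMUSG00000056749, chromosome 13, 52967209 to 52981073), the repressor that competes with DBP and TEF, gave 722 and 726 reads in the cKO pair, against 589 in the control, which is 58.0, 56.7 and 47.5 CPM. The cKO libraries of Nfil3 agreed closely, at 57.3 ± 0.9 CPM (SD, n = 2), and both lay above the control. The log2 fold change of Nfil3 was 0.27 ± 0.15 (SE, 95% interval -0.04 to 0.58), with an adjusted p of 0.409 in edgeR.

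**Figure D2:**
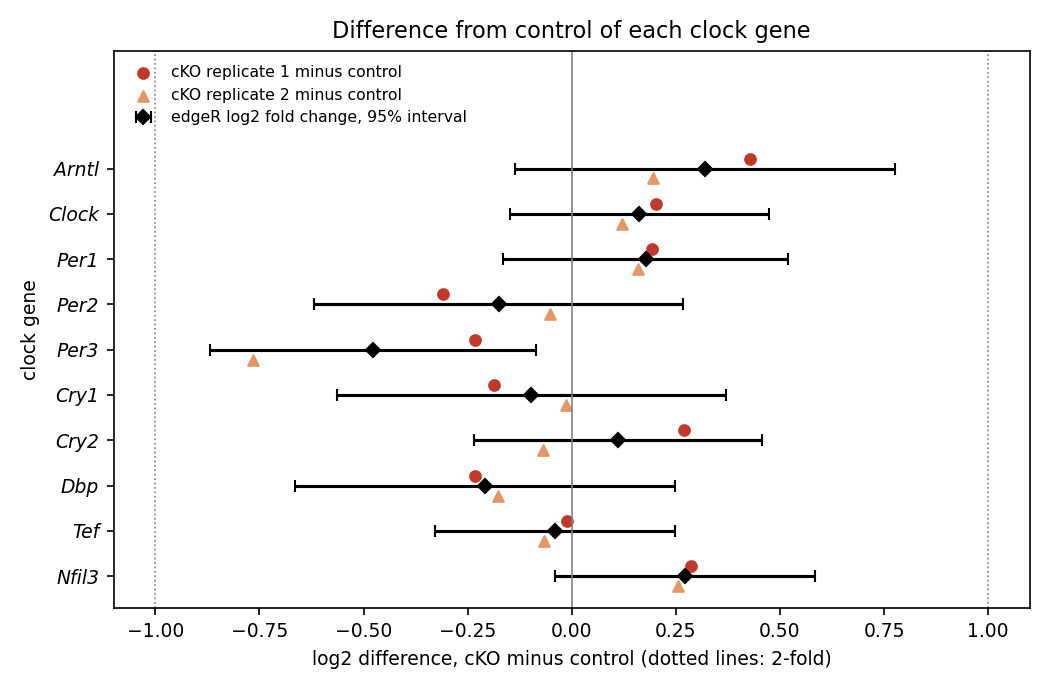
Log2 difference between cKO and control for each clock gene; diamonds are the edgeR estimates with 95% intervals, and coloured points are each cKO library minus the control. Per3 alone has an interval that leaves out 0, before adjustment over all genes, and no interval reaches the dotted lines at a 2-fold change.

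By side of the control, 4 members (Arntl, Clock, Per1 and Nfil3) were higher in both cKO libraries and 5 (Per2, Per3, Cry1, Dbp and Tef) were lower in both. These 9 of 10 stand beside 74.0% of all genes tested whose cKO values both lay to one side, 36.6% above and 37.4% below. For Tef in cKO replicate 1 and for Cry1 and Per2 in cKO replicate 2 the log2 difference was only -0.01, -0.01 and -0.05, so the side means little there. Requiring 1.5-fold in both cKO libraries left 0 members in either direction, where 3.36% of the 11339 genes with a mean CPM of 5 or more passed upward and 2.21% downward. The motifs were chosen after the values were seen, so setting them beside these sides is a description and not a test. Arntl and Nfil3, which hold the ROR element core, were both among the 4 higher members, by amounts that did not pass. Of the 3 members with an exact E-box match in a window, Per1 lay above the control in both cKO libraries, and Cry1 and Tef lay below it. A link between element and direction was not tested.

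Ratios between members within a library need no scaling between libraries. Nfil3 had 4.46 and 4.20 times the counts of Dbp in the cKO libraries, against 3.10 times in the control. On the log2 scale these ratios were 2.16 (exact 95% binomial interval 1.91 to 2.41) and 2.07 (1.83 to 2.32) against 1.63 (1.39 to 1.88), and the interval of cKO replicate 1 did not overlap that of the control while the interval of cKO replicate 2 did. The log2 ratio of Nfil3 to Tef was -0.61 and -0.59 in cKO and -0.91 in the control, and neither cKO interval overlapped that of the control. All these intervals cover counting error only and leave out variation between samples. The widest gap between cKO replicates 1 and 2 among the pairs, -0.52 for Cry1 to Cry2, was larger in size than the Nfil3 to Tef differences from the control (0.30 and 0.32). For Arntl against Per2 the log2 ratio was 0.37 and -0.12 in cKO replicates 1 and 2 against -0.37 in the control, so the gap between the cKO libraries (0.50) exceeded that between cKO replicate 2 and the control (0.25). Arntl against Dbp gave 0.50 and 0.21 in cKO and -0.17 in the control. Cry1 against Cry2 set cKO replicate 1 apart, at -2.08, from cKO replicate 2 at -1.56 and the control at -1.62. These ratios rest on the same counts as the fold changes above, and with 2 libraries against 1 they carry no test.

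**Figure D3:**
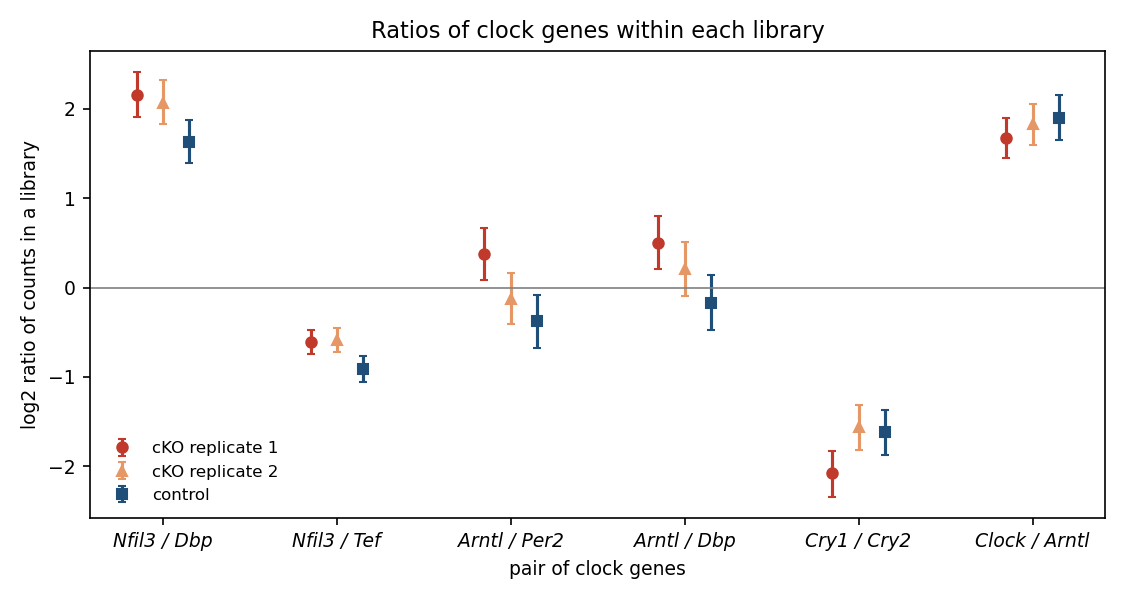
Log2 ratio of the read counts of pairs of clock genes within each library, with exact 95% binomial intervals that cover counting error only. The ratio of Nfil3 to Tef is near -0.6 in both cKO libraries and -0.91 in the control, while for Cry1 to Cry2 it is cKO replicate 1, at -2.08, that stands apart.

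Per kilobase of annotated exon (GENCODE M21), the order of the levels, as means over the 3 libraries, was Nfil3, Tef, Cry2, Per1, Dbp, Cry1, Clock, Per3, Per2 and Arntl. Nfil3 stood at 23.4 to 28.6 CPM per kilobase over the 3 libraries, Tef at 10.8 to 11.3, and Cry2 at 6.60 to 8.36. The ranges of neighbours did not overlap from Nfil3 down to Cry1, while from Cry1 (3.75 to 4.27) down to Arntl (1.81 to 2.44) each range overlapped the next. Of the clock members, Arntl was thus the least abundant per length, although its upper value in cKO replicate 1 reached the range of Per2 (2.43 to 3.01). All annotated exons of a gene were counted in its length, so unused exons would lower its value.

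The second loop and the paralogs of the core genes likewise gave no call, and 0 of the 5 tested genes passed in either direction, whether by edgeR, by DESeq2 or by limma-voom (by edgeR, 1 had an unadjusted p under 0.05). Nr1d1, which encodes the repressor REV-ERB alpha, gave 393 and 354 reads in the cKO pair, against 300 in the control, so the log2 difference was 0.29 ± 0.18 (SE, adjusted p = 0.484 in edgeR). Its exons overlap those of Thra on the other strand, with 1074 to 1370 counts, so its value is uncertain. Nr1d2, the gene of REV-ERB beta, differed by 0.01 ± 0.15, and the activator gene Rora by -0.08 ± 0.19. Npas2, a paralog that can stand in for CLOCK, was lower in both cKO libraries, at 7.15 and 5.55 CPM against 9.67 CPM, with a log2 difference of -0.61 ± 0.28 (SE; adjusted p = 0.292 in edgeR). Clock itself lay on the other side of the control. Arntl2, the paralog of Arntl, lay at 4.66, 3.44 and 4.19 CPM, the control between the cKO libraries. Hlf, the third factor of the Dbp and Tef family, had 2, 4 and 5 counts and Rorb 0, 3 and 1, and neither passed the filter.

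Around the members, 5 of 44 tested genes in 5 lists of the wider network rose and 0 fell in edgeR. Over all genes tested, 3.01% rose and 1.90% fell. An unadjusted edgeR p under 0.05 was found for 11 of the 44, against 15.7% of all genes. The lists were chosen with earlier results of these data known, so the shares here and in each list are a description and not a test. Among 14 repressors and modifiers of clock proteins, 1 rose. This was Bhlhe40, which encodes DEC1, a repressor that binds the E-box and answers to many signals besides the clock. It gave 1370 and 1193 reads in the cKO pair, against 868 in the control, or 110 and 93.2 CPM against 70.0 CPM, so the log2 difference was 0.54 ± 0.15 (SE, adjusted p = 0.0373 in edgeR). Both cKO libraries lay above the control, but the call was lost in DESeq2 (adjusted p = 0.368). Its paralog Bhlhe41 differed by 0.21 ± 0.22, the replication and clock factor Timeless by 0.18 ± 0.21, and the casein kinase gene Csnk1e, whose product marks PER proteins for degradation, by 0.10 ± 0.15. The list had a median log2 fold change of 0.07.

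Of 9 genes that are rhythmic in many tissues, 1 rose and 8 did not pass, with a median log2 fold change of 0.45. Nampt, which encodes the rate-limiting enzyme of NAD salvage and is driven by CLOCK and BMAL1 in liver, gave 1419 and 1573 reads in the cKO pair, against 951 in the control. It rose 1.54-fold (log2 0.63 ± 0.14 SE, adjusted p = 0.00848 in edgeR, and 0.0888 in DESeq2). Por, the electron donor of cytochrome P450 enzymes, lay at 104 and 100.2 CPM against 73.2 CPM (adjusted p = 0.0547 in edgeR), Klf10 at 59.1 and 61.2 against 42.7 CPM (adjusted p = 0.0685), and the cell cycle inhibitor gene Cdkn1a at 373 and 466 against 308 CPM (adjusted p = 0.119). In 8 of the 9 genes both cKO libraries lay above the control, as in 36.6% of all genes tested, the other being Tsc22d3, where both lay below. As background, several of these genes also answer to stress and growth signals.

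Genes that respond to inputs known to act on Per1 were also looked at in lists. Whether any of these inputs differed between the groups was not tested. Of 9 tested glucocorticoid-responsive genes, 2 rose (list median 0.33 on the log2 scale). Errfi1, a feedback inhibitor of the EGF receptor, gave 1361 and 1454 reads in the cKO pair, against 653 in the control and rose 2.12-fold (log2 1.08 ± 0.15 SE, adjusted p = 2.70e-05 in edgeR). Errfi1 also passed in DESeq2 (adjusted p = 2.81e-05). Dusp1, a phosphatase that ends MAP kinase signalling, rose by 0.56 ± 0.15 (SE, adjusted p = 0.0361 in edgeR, and 0.337 in DESeq2). For the glucocorticoid targets Mt2, Fkbp5 and Sgk1 the log2 fold changes were 0.41 ± 0.15, 0.33 ± 0.17 and 0.16 ± 0.14, and Tsc22d3 had -0.18 ± 0.18, without a pass. Of 10 cAMP and serum-responsive genes, 2 rose, Dusp1 again and the antiproliferative gene Btg2, by 0.56 ± 0.16 (SE, adjusted p = 0.0429 in edgeR, and 0.530 in DESeq2). Nr4a1, an early-response receptor gene, gave 139 and 263 reads in the cKO pair, against 106 in the control, with cKO replicate 2 far above the other libraries (adjusted p = 0.0987 in edgeR). Sik1, a kinase gene of the light response of the clock, and Fos differed by 0.58 ± 0.32 and -0.24 ± 0.18, and the list median was 0.11. Of the 5 genes that rose, Bhlhe40, Dusp1 and Btg2 missed the threshold with RLE scaling (adjusted p of 0.0595 in edgeR for each), and with a prior of 5 degrees of freedom Errfi1 alone passed (adjusted p = 0.0246 in edgeR). Without the filter on low counts Errfi1 missed it as well (adjusted p = 0.347 in edgeR).

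**Figure D4:**
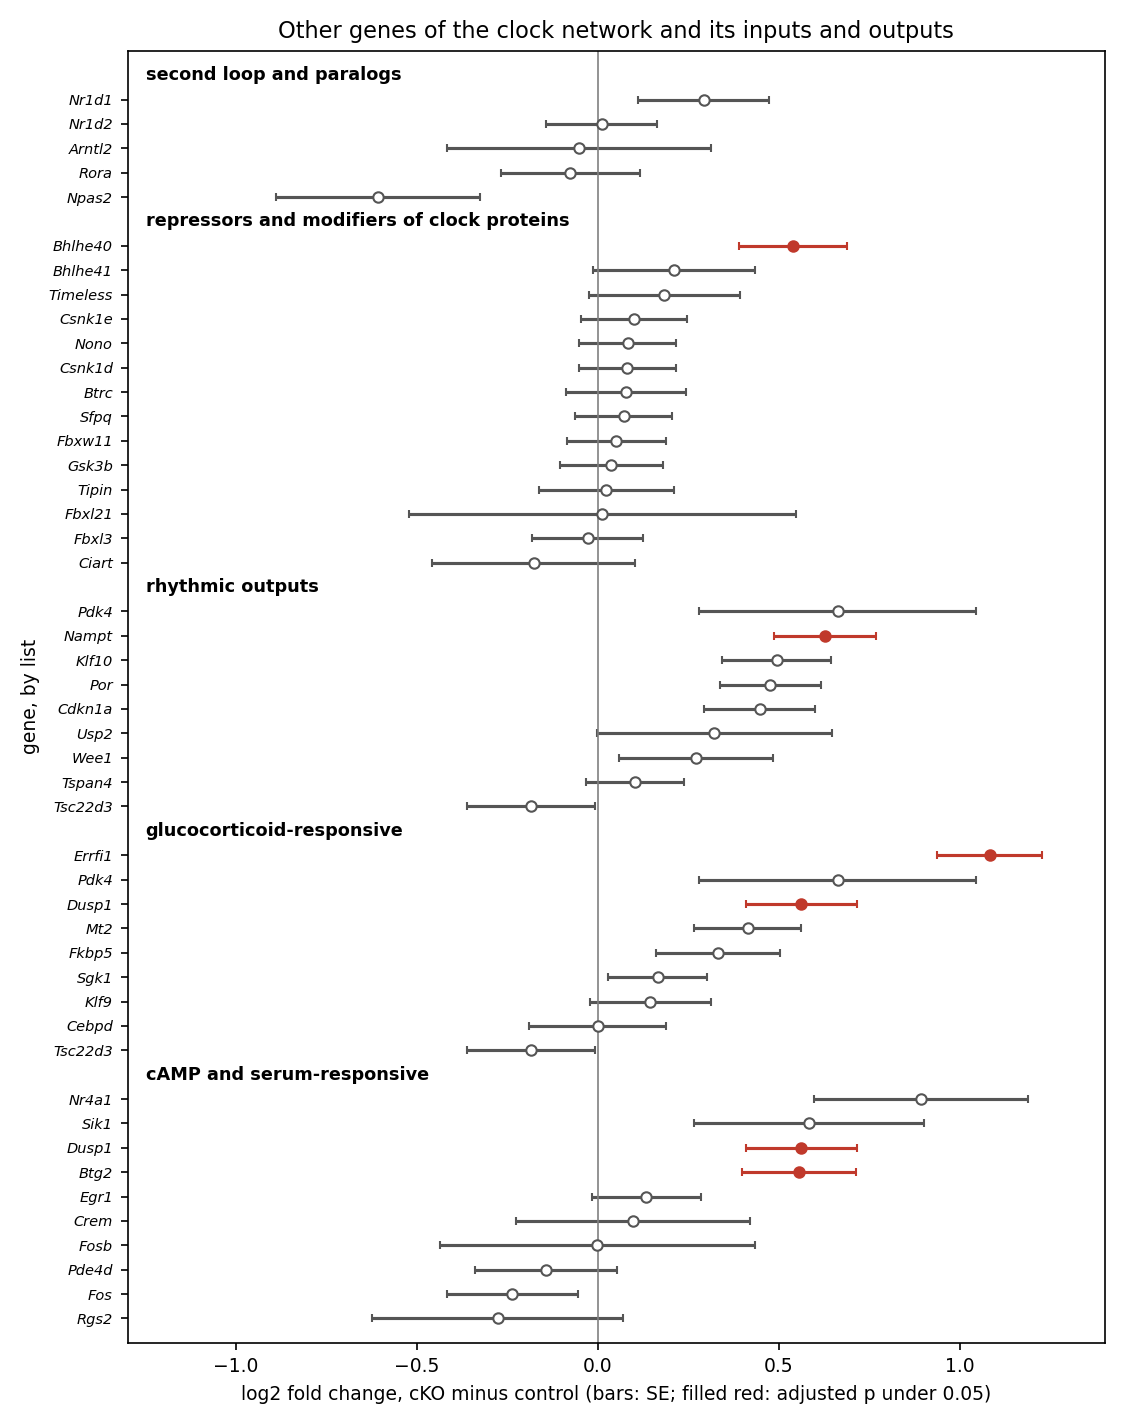
Log2 fold change of cKO against control, with SE, for the other genes of the clock network and its inputs and outputs, by list; filled red points passed the edgeR test. The 5 genes that passed lie to the right of 0, Errfi1 farthest at 1.08, and Dusp1 is drawn in both of its lists.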

How the data were processed

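Raw read counts by gene symbol for 3 libraries make up the single table that the authors deposited, per the file headers. Ribosomal RNA was removed from RNA of integrity number above 8.0, and libraries followed an Ion Proton protocol, per the labels' protocols. The submitters' processing notes name the builds GRCm38 and GRCh37 without a role. Which aligner or counter was used, and whether strand was kept, is not given in the sources used here. Counts of 15529 genes kept by filterByExpr (of 44788, with 24051 above 0) were fitted with edgeR 4.0.16 in R 4.3.3 (TMM, quasi-likelihood F test, Benjamini-Hochberg adjustment over all genes). The fit has 1 residual and 19.9 prior degrees of freedom. SE is the size of the log2 fold change over the root of the F statistic, and 95% intervals use its total degrees of freedom. Differences of single libraries use log2 CPM with a prior count of 2. DESeq2 1.42.0, limma-voom (limma 3.58.1), RLE scaling, no filter and a prior of 5 degrees of freedom were alternatives. The labels do not say whether the cKO libraries came from separate animals. Xist gave 2 and 10081 reads and Ddx3y 680 and 0 in cKO replicates 1 and 2, which a single animal would not give. The control resembles cKO replicate 1 in these genes. The p-values rest on a variance shared across genes and on the spread between the 2 cKO libraries, which differ in sex-linked reads. The control adds no spread of its own. Genes were placed with GENCODE M21 (GRCm38). Ciart was found under its older symbol Gm129. One gene of the second-loop list is not reported here and was left out of the counts of that list. The members and lists were chosen with earlier results of these data known, and motifs after the values were seen. Named genes are all members, the second loop, the genes of each list that passed, and up to 3 more per list with the smallest p at a mean CPM of at least 5; Tsc22d3 was named in addition after its values were seen.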

Additional observations from a re-analysis of the deposited data

How the results depend on the processing

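For the clock members, 0 passed in either direction under any of the 5 tested alternatives. The fitted differences kept their sign in all 50 member values. This says little, since these alternatives hardly move a fold change (for Arntl, 0.31 to 0.32 on the log2 scale). The count of 1.5-fold members stayed at 0 with RLE factors, column totals or a prior count of 0.5. Lowering the floor to a mean CPM of at least 1 could not change this count, since every member already passed the floor of 5. The count of wider network genes that rose, 5 in edgeR, was 1 in DESeq2, 2 with RLE size factors, 1 with a prior of 5 degrees of freedom and 0 without a filter on low counts, and 5 in limma-voom; the cause was not tested. Over all genes, 762 passed in edgeR, 310 in DESeq2, 193 with a prior of 5 degrees of freedom and 0 without the filter, where 1829 of 24051 had an unadjusted p under 0.05. With 1 cKO library left out there are no residual degrees of freedom, so only fold changes were recomputed: Arntl ranged from 0.19 to 0.43, Per2 from -0.31 to -0.05, Per3 from -0.77 to -0.23, Cry1 from -0.19 to -0.014, Tef from -0.069 to -0.012, Nr1d1 from 0.19 to 0.38 and Cry2 from -0.07 to 0.27 on the log2 scale, and Cry2 changed side. No paired analysis was possible because the 1 control library carries no replicate number. At 156 to 1107 counts, the members' 95% intervals reach down to a fold of 0.548 and up to a fold of 1.71, and differences inside a gene's interval are not resolved by these 3 libraries.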
